A study of Mus musculus with 4 samples.

Results

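S100a8, S100a9, Stfa2l1, Stfa2, Stfa3, Cstdc4, Retnlg and G0s2 are 8 of the 32285 genes counted by single-cell RNA sequencing (scRNA-seq) of CD45+ leukocytes from EO771 mammary tumors. They were chosen by their UMIs (counted molecules) per 10000 across the cell types of these same tumors, as genes of calprotectin, of the stefin A family and of neutrophils, so their high level in neutrophils is described below and not tested. EO771 is a mouse mammary carcinoma line, and the cells had been implanted into the mammary fat pads of female C57BL/6 mice. The tumors came from Csf1r fl/fl mice (n = 2) and from Lyve1Cre Csf1r fl/fl mice (n = 2), whose ages are not given in the sources used here. Both genotypes carried the floxed allele of Csf1r, the receptor of the macrophage growth factor CSF1, and the second also carried Cre at the Lyve1 locus, which deletes Csf1r in LYVE-1+ macrophages and is also active in lymphatic endothelium. Tumors of both genotypes were pooled, 1 of each, in each of 2 Chromium runs, and hashtag antibodies identified the tumor of a cell. Values in the 4 tumors are given in the order Csf1r fl/fl run 1, Csf1r fl/fl run 2, Lyve1Cre Csf1r fl/fl run 1 and Lyve1Cre Csf1r fl/fl run 2, and a tumor is named by its genotype and run.

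S100A8 and S100A9 are small calcium-binding proteins that pair to form calprotectin. Neutrophils store it in their cytosol and release it at sites of inflammation, where it binds zinc and manganese and signals through Toll-like receptors. Stefins are cytosolic inhibitors of cysteine cathepsins, and the mouse has a family of stefin A genes. Retnlg encodes a secreted protein of the resistin family, and G0s2 encodes an inhibitor of the triglyceride lipase encoded by Pnpla2.

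S100a8 lies on the plus strand of chromosome 3 (chr3:90668978-90670035, mm10) and S100a9 on the minus strand (chr3:90692632-90695721), 22596 bases apart. Stfa2l1, Cstdc4, Stfa2 and Stfa3 lie within 298582 bases of chromosome 16 (chr16:36156811-36455392), each with 3 exons in its longest model (Cstdc4 is named Gm5483 in that annotation). Retnlg lies elsewhere on the same chromosome (chr16:48872621-48874496), and G0s2 is on chromosome 1 (chr1:193272161-193273217). The 250 bases before the start sites of the calprotectin genes are shown because both genes were at their highest in the same cells. Sequences and start sites are from RefSeq (GRCm38.p6), 5′ to 3′ along the strand of the gene. The RefSeq start sites of S100a8, Stfa2 and G0s2 lie inside the genes as bounded above by GENCODE, so that their windows run into these bounds, and that of Retnlg lies outside its bounds. Capitals mark the matches to the motifs that were searched on both strands, which were the PU.1 site GAGGAAGT, the C/EBP core TTGCNNAA, the AP-1 site TGANTCA and the TATA box TATAAA.
S100a8 (chr3:90668821-90669070): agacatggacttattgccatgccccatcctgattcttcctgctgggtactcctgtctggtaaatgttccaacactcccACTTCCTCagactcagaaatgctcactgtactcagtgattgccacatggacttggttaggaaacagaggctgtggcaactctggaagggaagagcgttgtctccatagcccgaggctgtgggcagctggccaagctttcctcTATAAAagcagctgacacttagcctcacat
S100a9 (chr3:90695722-90695971): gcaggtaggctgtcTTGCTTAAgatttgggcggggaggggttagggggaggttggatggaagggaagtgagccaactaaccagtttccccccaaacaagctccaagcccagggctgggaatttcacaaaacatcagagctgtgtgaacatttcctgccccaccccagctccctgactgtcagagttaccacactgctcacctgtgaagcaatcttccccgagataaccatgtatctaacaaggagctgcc

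The S100a8 window held a PU.1 site on the minus strand, starting 172 bases before the start site, and a TATA box starting 30 bases before it. The S100a9 window held a C/EBP core starting 236 bases before the start site. Of 32851 promoter windows of this length, 2.44% held the PU.1 site, 12.4% the TATA box, 9.56% the C/EBP core and 6.75% the AP-1 site. A C/EBP core was also found in the window of Retnlg, 246 bases before its start site, and the AP-1 site was found in 0 of the 8 windows. A match of letters is a description and was not tested for binding.

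The stefin A genes are shown because their promoters could be aligned with each other. Capitals mark the stretches of at least 10 bases that all 4 windows shared.
Stfa2l1 (chr16:36156561-36156810): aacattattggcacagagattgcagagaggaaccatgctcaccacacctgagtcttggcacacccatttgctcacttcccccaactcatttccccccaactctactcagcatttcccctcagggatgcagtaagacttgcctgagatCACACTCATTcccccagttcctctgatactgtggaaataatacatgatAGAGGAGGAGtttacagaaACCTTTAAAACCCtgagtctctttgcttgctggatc
Stfa2 (chr16:36408364-36408613): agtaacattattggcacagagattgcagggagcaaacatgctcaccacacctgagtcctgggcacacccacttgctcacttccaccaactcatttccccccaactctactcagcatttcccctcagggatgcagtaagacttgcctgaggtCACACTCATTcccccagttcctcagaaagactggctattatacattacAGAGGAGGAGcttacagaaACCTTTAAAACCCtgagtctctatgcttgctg
Stfa3 (chr16:36455393-36455642): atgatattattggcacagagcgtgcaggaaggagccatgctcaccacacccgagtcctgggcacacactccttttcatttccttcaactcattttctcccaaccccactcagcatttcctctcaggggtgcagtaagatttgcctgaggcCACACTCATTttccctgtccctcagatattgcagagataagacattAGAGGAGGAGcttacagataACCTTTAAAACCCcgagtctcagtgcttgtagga
Cstdc4 (chr16:36183962-36184211): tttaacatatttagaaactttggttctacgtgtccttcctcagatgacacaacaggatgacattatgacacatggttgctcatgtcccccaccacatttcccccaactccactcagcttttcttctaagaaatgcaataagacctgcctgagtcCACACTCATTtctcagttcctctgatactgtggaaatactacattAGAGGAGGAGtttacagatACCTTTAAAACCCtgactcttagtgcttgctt

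Pairs of stefin A windows were 69.2% to 90.8% identical (median 77.8%, 6 pairs), against 45.6% to 56.0% (median 52.2%) in the other 22 pairs of members. The longest stretch shared by all 4, ACCTTTAAAACCC, began 32 to 36 bases before the start sites and was found in 8 of the 32851 windows (0.0244%). The genes of these windows were Csta3, Cstdc3, Cstdc4, Gm7260, Stfa1, Stfa2, Stfa2l1 and Stfa3. Of the 90-base stretches at the 3′ ends of Stfa2l1 and Stfa2, 2.57% were shared by these genes, so that reads of these stretches cannot be told apart by gene. For Cstdc4, 9.73% were shared with 2010005H15Rik, and for the other 5 members none were shared with any gene.

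The count table held 53361 barcodes, of which the 28429 that the authors kept were used. The tumors gave 8699, 7786, 7173 and 4771 cells, with 27686362 to 56715743 UMIs per tumor and a median of 3721 to 4657 UMIs per cell. The same barcode sequence was kept in both runs for 60 barcodes. Cells were clustered without the 8 genes, and 14 of 16 clusters were named from marker lists. Neutrophil-like cells (6202 cells, with 10 of the 11 markers of the list, such as Csf3r, Cxcr2 and Hdc, among their 50 leading genes) had a median of 2099 UMIs. They made up 18.2%, 24.6%, 26.6% and 16.6% of the kept cells of the tumors. Per the paper, the authors had removed lymphocyte clusters that came almost only from Lyve1Cre Csf1r fl/fl run 2. The share in that tumor is thus higher than it would be with those lymphocytes. The mean share was 21.4% ± 4.54 in Csf1r fl/fl and 21.6% ± 7.07 in Lyve1Cre Csf1r fl/fl tumors (SD, n = 2), a difference of 0.136 percentage points (p = 1, exact permutation test, two-sided). With 2 tumors against 2, the smallest p this test can give is 0.3333.

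Neutrophil-like cells spent a large part of their RNA on calprotectin. S100a8 and S100a9 together made up 14.04%, 11.2%, 12.1% and 11.4% of their UMIs. S100a8 was at 665, 435, 543 and 457 UMIs per 10000 UMIs of the cells. S100a9 was at 740, 682, 669 and 679 UMIs per 10000. The runs overlapped for S100a9, and for S100a8 both tumors of run 1 were above both tumors of run 2, by 1.35-fold in the means of the runs. Both tumors of run 1 were above both of run 2 for 24.0% of the 11957 genes with at least 10 UMIs in these cells, and for 13.5% of 10344 genes without doublets. Doublets, barcodes with more than 1 cell as called by Scrublet from simulated pairs of cells, were 22.6%, 8.23%, 14.95% and 6.95% of the neutrophil-like cells. Without them S100a8 was at 898, 496, 640 and 501 UMIs per 10000, and the run means were 1.54-fold apart. S100a9 was then at 999, 778.5, 788 and 743, with both tumors of run 1 above both of run 2 as well, by 1.17-fold in the means. Levels are not scaled by transcript length and are not compared between genes.

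Retnlg, the resistin-like gene, was at 76.6, 30.1, 52.8 and 43.2 UMIs per 10000 in neutrophil-like cells and was also higher in both tumors of run 1, by 1.76-fold in the means. G0s2, the lipase inhibitor, was at 48.6, 58.6, 72.5 and 55.1 UMIs per 10000, and its runs overlapped. Among the stefins, Cstdc4 was at 19.7, 24.1, 28.4 and 27.6 UMIs per 10000. Cstdc4 was the member whose Lyve1Cre Csf1r fl/fl tumors both lay above both Csf1r fl/fl tumors, and the runs overlapped. This order of the genotypes was found for 8.06% of the 11957 genes with at least 10 UMIs (13.6% without doublets), and 0% of the 9583 genes tested in these cells were called between genotypes (the test is given below). Without doublets Cstdc4 was at 27.8, 26.9, 34.3 and 31.3 UMIs per 10000. Stfa2l1 was at 11.99, 10.2, 13.2 and 11.3 UMIs per 10000, with both tumors of run 1 above both of run 2. The other stefins were rare. Stfa2 was at 1.06, 0.397, 0.658 and 0.361 and Stfa3 at 0.195, 0.0684, 0.117 and 0.0757 UMIs per 10000, which rest on 1222 and 222 UMIs in 269 and 120 neutrophil-like cells. Both genes were higher in both tumors of run 1, by 2.27-fold and 2.16-fold in the means.

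**Figure D1:**
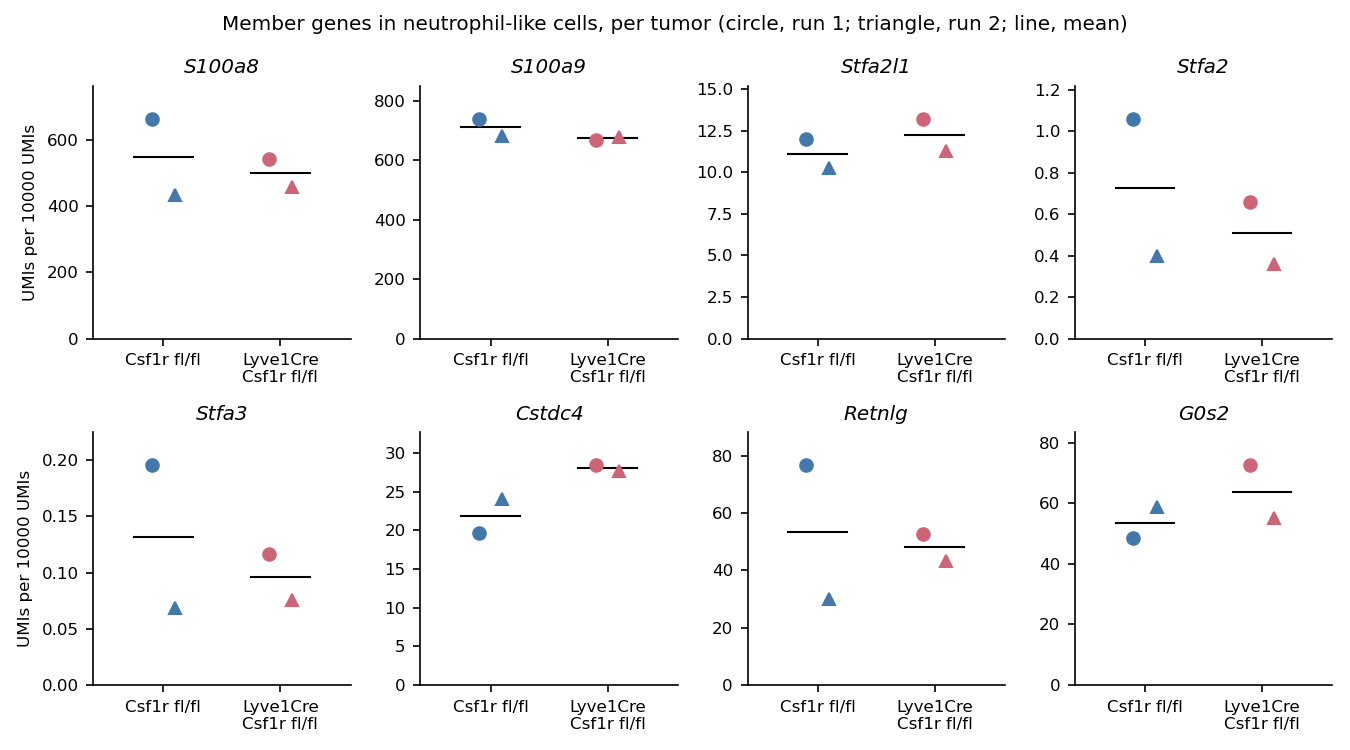
Levels of the 8 genes in neutrophil-like cells as UMIs per 10000 UMIs, 1 point per tumor, with circles for run 1, triangles for run 2 and lines at the mean of each genotype. S100a8, Stfa2l1, Stfa2, Stfa3 and Retnlg are higher in both circles than in both triangles, and the Lyve1Cre Csf1r fl/fl points lie above the Csf1r fl/fl points for Cstdc4.

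Cells were thinned to 1000 UMIs each to compare how many carried a transcript, which left out 177 neutrophil-like cells with fewer. A UMI of S100a8 was then found in 97.3% of neutrophil-like cells, pooled over the tumors (95% exact binomial interval 96.8 to 97.7; 98.7% without thinning) and one of S100a9 in 97.9%. G0s2 was found in 73.7%, Retnlg in 67.2%, Cstdc4 in 40.8% and Stfa2l1 in 38.9% (48.1% without thinning). Calprotectin was thus detected in nearly every neutrophil-like cell, and the stefins in a part of them. Stfa2 was found in 2.69% and Stfa3 in 0.880% of the thinned cells. The levels also spread widely between cells. The median thinned cell had 65, 38, 47 and 39.5 UMIs of S100a8 in the 4 tumors, a lower decile of 3 to 6 and an upper decile of 99 to 147. For Cstdc4 the median was 0 in each tumor and the upper decile 9 to 10. Intervals cover counting error only.

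The stefins overlapped in their cells. Cstdc4 was detected in 69.0% of the 2341 thinned neutrophil-like cells with a UMI of Stfa2l1 and in 22.8% of the 3684 without. A UMI of Stfa2l1 was found in 73.5% of the 162 cells with Stfa2 and in 37.9% of the others. At this depth 46.7% of the cells had none of the 4 stefins, 25.5% had 1 and 25.9% had 2. Such shares are a description over cells that share libraries.

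Subclusters of the neutrophil-like cells, also made without the 8 genes, differed in calprotectin and in the stefin Cstdc4. Subcluster 1 (2049 cells) was led by Camp, Ngp, Ly6g and Mmp9, genes of neutrophil granules and of the mature neutrophil surface. It had the highest S100a8, at 1209, 661, 876 and 782 UMIs per 10000, and the highest Retnlg, with a mean of 99.4. Subcluster 0 (2161 cells) was led by Spp1, Atp6v0d2, Cxcl3 and Hilpda. Its S100a8 was lower in every tumor, at 659, 417, 549 and 388 UMIs per 10000. The stefin Cstdc4 had the opposite order, at 38.9, 46.4, 43.8 and 47.3 UMIs per 10000 in subcluster 0 and 21.1, 11.9, 22.3 and 14.3 in subcluster 1. Stfa2l1 had its highest mean in subcluster 0 as well (17.7, against 12.2 in subcluster 1), whereas the rare Stfa3 was at 0.153 ± 0.0888 there and at 0.168 ± 0.125 in subcluster 1. Subcluster 2 (1179 cells), led by Cxcl10, Rsad2 and Ifit genes of the interferon response, lay below subcluster 1 for S100a8 (mean 431 ± 124, SD, n = 4 tumors) and between both others for Cstdc4 (26.9 ± 4.07). Subclusters 3 and 4 (506 and 307 cells) were led by MHC class II and T cell genes, and 89.7% and 80.8% of their cells were called doublets. They had the lowest means of S100a8 (319 and 254).

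A finer split (resolution 0.5) set apart 339 cells led by Ngp, Camp and Ltf, the granule genes of young neutrophils. They were 12.99%, 1.46%, 4.62% and 2.15% of the neutrophil-like cells of the tumors, with both tumors of run 1 above both of run 2 as for S100a8 and Retnlg. In these cells S100a8 was at a mean of 1410 ± 107, S100a9 at 1595 ± 117 and Retnlg at 217 ± 28.2 UMIs per 10000 (SD, n = 4 tumors). A group of 83 cells was led by the stefin A family genes Stfa1, Cstdc5 and Csta2, which are not among the 8. It had the highest Stfa2l1 (25.8 ± 5.78) and Stfa2 (2.97 ± 2.76), and in Lyve1Cre Csf1r fl/fl run 2 it had only 6 cells and no UMI of Stfa2.

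**Figure D2:**
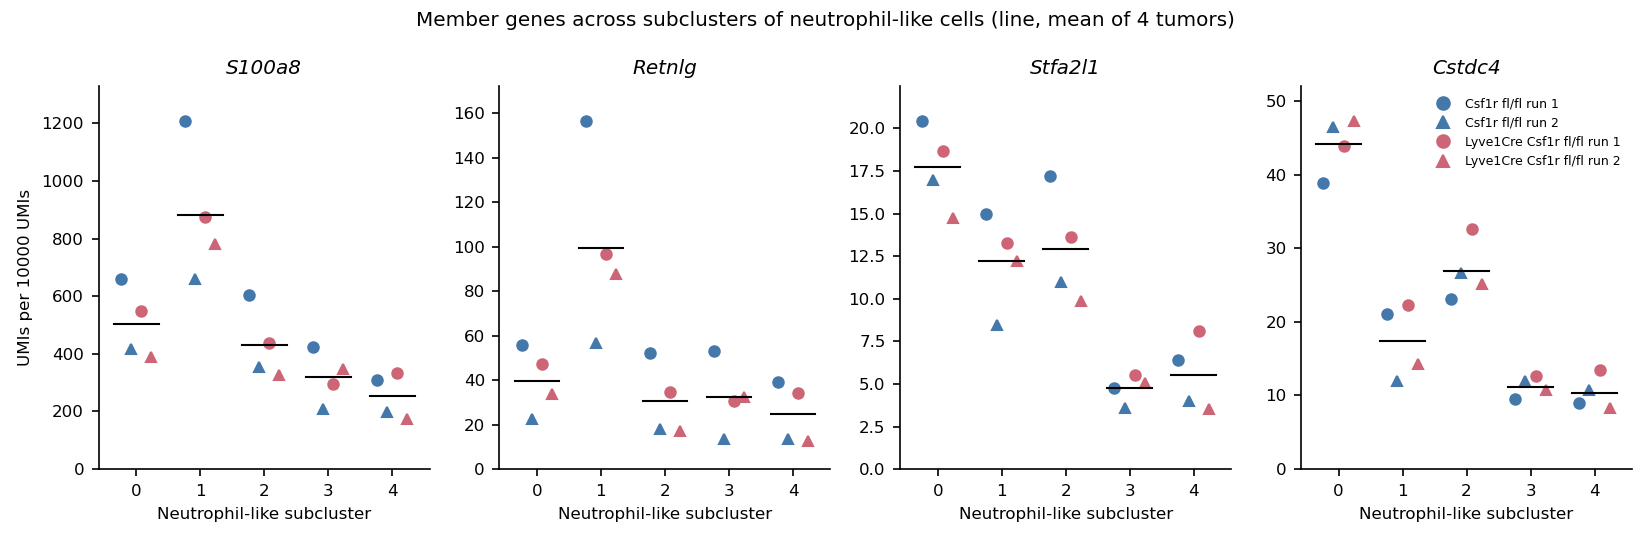
Levels of S100a8, Retnlg, Stfa2l1 and Cstdc4 as UMIs per 10000 UMIs in the 5 subclusters of neutrophil-like cells, 1 point per tumor and a line at the mean of 4 tumors. S100a8 and Retnlg are highest in subcluster 1, and Cstdc4 and Stfa2l1 in subcluster 0.

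Likeness of other genes to the members was measured across 60 pairs of cell type and tumor, among 9026 genes. On log levels, S100a8 and S100a9 had r = 0.992, and S100a8 was most like Lcn2 (r = 0.971), Wfdc21 and Hdc outside the members. Stfa2 was less like S100a8 (r = 0.642), and its nearest gene was its family member Cstdc5 (r = 0.809). The nearest gene of Stfa3, Chil1, was less like it (r = 0.669). The points share libraries and doublets, and no test was made.

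Outside neutrophil-like cells all 8 genes were found at low levels in most cell types. Leaving out a group of 148 B-like cells, the highest other mean of S100a8 was that of C1q macrophage-like cells, at 49.2, 18.5, 48.9 and 10.4 UMIs per 10000. This mean of 31.8 was 16.5-fold below the neutrophil mean. Tumor or stroma-like cells had the lowest mean, 1.96 UMIs per 10000. Between them came the Arg1 macrophage-like, plasmacytoid dendritic-like and monocyte-like cells (27.7, 25.7 and 21.1) and the lymphocytes (CD8 T-like 8.05, regulatory T-like 8.64 and NK-like 14.1). The order from the C1q macrophage-like cells down could not be read, since each of these types overlapped the next in the range of its 4 tumors, and Arg1 macrophage-like cells were above C1q macrophage-like cells in both tumors of run 2 (21.5 and 14.7). C1q macrophage-like cells had the highest of these means also for S100a9, Stfa2l1, Cstdc4, Retnlg and G0s2, with means 16.9-fold, 17.5-fold, 20.1-fold, 17.8-fold and 17.0-fold below those of neutrophil-like cells.

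The B-like cells stood apart, with S100a8 at 140, 197, 238 and 91.5 UMIs per 10000. They were few, with 19, 3, 10 and 116 cells in the tumors, and 43.2% were called doublets. In 62 of the 148 cells over 100 UMIs of calprotectin were counted, and in these cells the 11 neutrophil markers summed to 86.5 UMIs per 10000, against 15.7 in the other B-like cells (cells of all tumors pooled).

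The levels outside neutrophil-like cells were also compared between the runs. S100a8 was higher in both tumors of run 1 than in both tumors of run 2 in 14 of 15 other types, S100a9 in 13, Retnlg in 14, Stfa2l1 in 11, G0s2 in 10, Cstdc4 in 8, Stfa2 in 6 and Stfa3 in 1. Over all genes with at least 10 UMIs in a type, 14.8% of the pairs of gene and type had this order. Without the cells called doublets the counts were 9 for S100a8, 6 for S100a9, 9 for Retnlg, 1 for Stfa2l1, 5 for G0s2, 4 for Cstdc4 and 0 for Stfa2 and Stfa3, against 14.4% of all such pairs. In monocyte-like cells S100a8 was at 31.3, 14.3, 25.7 and 12.96 UMIs per 10000. In plasmacytoid dendritic-like cells it was at 42.6, 17.3, 41.6 and 1.19. Scrublet called 21.3% of the cells of run 1 and 12.8% of those of run 2 doublets.

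**Figure D3:**
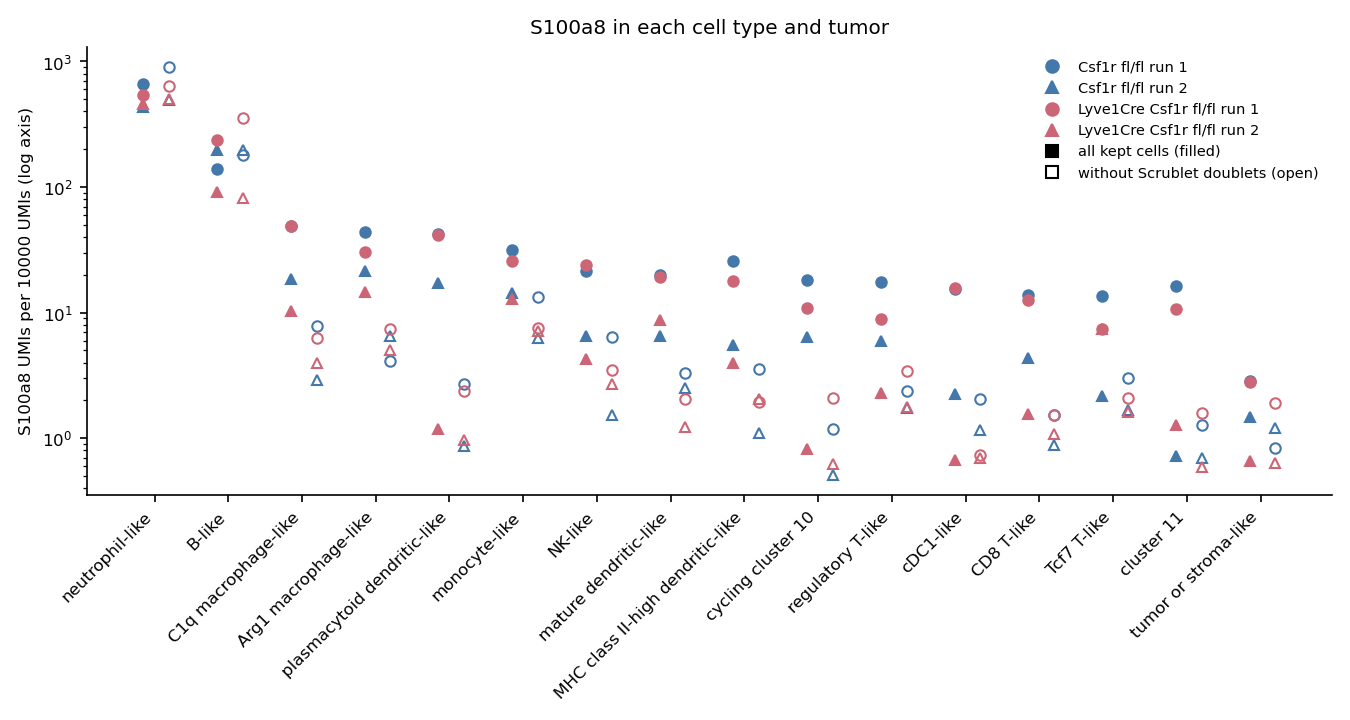
S100a8 as UMIs per 10000 UMIs (log axis) in each cell type, 1 point per tumor, with circles for run 1 and triangles for run 2, filled for all kept cells and open without cells called doublets. The 4 points of neutrophil-like cells are higher without doublets (495.7 to 897.7), and the means of all types but these and the B-like cells are lower.

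Counted in UMIs, a part of the calprotectin RNA of every tumor lay outside neutrophil-like cells. For S100a8 the share was 27.0%, 14.6%, 13.9% and 20.7%. For S100a9 it was 28.2%, 13.9%, 13.6% and 20.2%. The cells outside held 83.2% to 93.8% of all UMIs. Cstdc4 had 25.8%, 12.1%, 9.09% and 15.2% of its UMIs outside, and G0s2 31.1%, 14.4%, 10.4% and 16.2%. Retnlg and Stfa2l1 lay between 11.2% and 24.0%. Csf1r fl/fl run 1 had the highest share for each of these 6 genes. For Stfa3 the share in Lyve1Cre Csf1r fl/fl run 2 was 64.9% (24 of 37 UMIs, 95% exact binomial interval 47.5 to 79.8). For Stfa2 in that tumor it was 43.1% (47 of 109 UMIs), and 38 of the 47 were in 1 mature dendritic-like cell. The mean share of S100a8 was 20.8% ± 8.79 in Csf1r fl/fl and 17.3% ± 4.81 in Lyve1Cre Csf1r fl/fl tumors (SD, n = 2), a difference within the spread of the tumors (p = 0.667, exact permutation test, two-sided), and for the other 7 genes this test gave p = 0.667 or 1.

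The cells that held the outside UMIs differed between the tumors. Of the S100a8 and S100a9 UMIs outside neutrophil-like cells, C1q macrophage-like cells held 35.6%, 20.3%, 9.68% and 6.15%, with 19.1%, 9.30%, 3.64% and 3.92% of all UMIs there. Monocyte-like cells held 15.4%, 26.5%, 19.1% and 20.4%, with 14.2%, 18.6%, 13.8% and 14.2% of all UMIs. In Lyve1Cre Csf1r fl/fl run 2, the 116 B-like cells held 37.0% of the outside calprotectin UMIs with 3.02% of all UMIs, against 1.08% to 2.02% of the outside calprotectin UMIs in the other 3 tumors. The outside share of that tumor thus rests in part on these few cells.

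**Figure D4:**
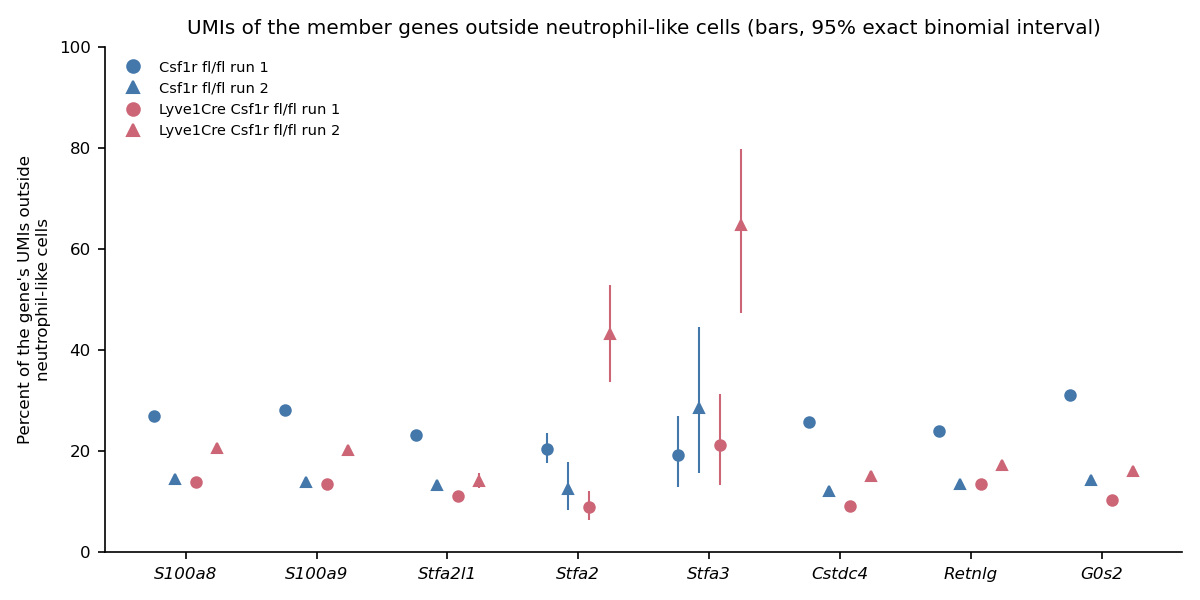
Percent of the UMIs of each gene that lay outside neutrophil-like cells, 1 point per tumor with its 95% exact binomial interval. The interval covers counting error only and treats the UMIs of a cell as independent. The shares of the 4 tumors spread from 13.9% to 27.0% for S100a8, and the points of Stfa2 and Stfa3 in Lyve1Cre Csf1r fl/fl run 2 stand above the rest.

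The calprotectin UMIs outside neutrophil-like cells sat in few cells. Cells with over 100 UMIs of S100a8 and S100a9 were 8.39%, 3.39%, 5.01% and 3.12% of the cells outside, and they held 92.0%, 82.0%, 87.9% and 82.6% of these UMIs. The median cell outside had 1 or 2 such UMIs, against 253 in neutrophil-like cells, and 19.4% to 25.9% of cells outside had none. Pooled over the tumors, of the 1184 cells with over 100, 87.7% were called doublets, and 86.9% when Scrublet was run without the 8 genes, against 14.7% and 14.3% of the 21043 cells with fewer. These 1184 cells had a median of 8202 UMIs, against 4671 in the others, and the 11 neutrophil markers, none of them a member, summed to 37.9 UMIs per 10000 against 5.17. In neutrophil-like cells with over 100 calprotectin UMIs the same markers summed to 155. None of the 11 markers was at 0 in either set. The high cells still held markers of their own type, at levels below those of the other cells in most types. In the 280 such C1q macrophage-like cells the markers of these macrophages summed to 60.5 UMIs per 10000 against 69.2 in the other 1423, in regulatory T-like cells their own markers to 40.3 against 65.4, and in cDC1-like cells to 17.9 against 30.8. Arg1 macrophage-like (41.0 against 38.5) and B-like cells (31.0 against 21.3) had the opposite order.

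S100a8 and S100a9 together had a mean of 72.8 ± 39.4 UMIs per 10000 in all C1q macrophage-like cells and of 11.3 ± 3.20 without the cells called doublets (SD, n = 4 tumors). In the same way the means were 59.9 and 3.92 in plasmacytoid dendritic-like cells, 44.1 and 13.98 in monocyte-like cells and 18.6 and 2.95 in CD8 T-like cells. In neutrophil-like cells the mean was higher without doublets, 1461 ± 301.4 against 1217 ± 131. The share of calprotectin UMIs outside neutrophil-like cells was then 4.14% ± 0.836 in Csf1r fl/fl and 5.81% ± 4.72 in Lyve1Cre Csf1r fl/fl tumors, against 20.9% ± 9.51 and 17.0% ± 4.74 with all cells. The B-like cells were at 334, 486, 577 and 236 UMIs per 10000 with all cells and at 438, 486, 858 and 217.5 without doublets. Doublets were called among the kept cells, after the authors had removed lymphocyte clusters. Of the B-like cells with over 100 calprotectin UMIs, 41.9% were called by Scrublet without the 8 genes. The share was 86.9% of all such cells outside neutrophil-like cells. Whether the B-like cells left were single cells was not tested. Without doublets, monocyte-like cells had the highest mean of S100a8 among the types other than B-like cells, 8.56 ± 3.25 UMIs per 10000 (SD, n = 4 tumors). Their values were 1.17% to 1.49% of the neutrophil level of the same tumor. In CD8 T-like cells, a type not known for making calprotectin, S100a8 was at 1.52, 0.891, 1.53 and 1.08 UMIs per 10000, or 0.170% to 0.2397% of the neutrophil level. The monocyte-like values, at 13.4, 6.27, 7.48 and 7.13, lay above the CD8 T-like values in every tumor. Arg1 macrophage-like cells, at 4.14, 6.51, 7.44 and 5.01, overlapped the monocyte-like cells. For S100a9 the order of the means was another, with Arg1 macrophage-like (8.29 ± 2.09) and C1q macrophage-like cells (6.05 ± 1.11) above monocyte-like cells (5.42 ± 1.94), in overlapping ranges. Among the cells not called doublets, 49 monocyte-like, 20 C1q macrophage-like, 10 Arg1 macrophage-like and 0 CD8 T-like cells still held over 100 calprotectin UMIs. Pooled over the tumors, calprotectin in these macrophage and monocyte types was at 14.25, 12.4 and 13.3 UMIs per 10000 with such cells, in that order. Without such cells it was at 7.35, 3.61 and 6.28, against 3.03 in CD8 T-like cells.

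Other members were compared in a few types without doublets. Arg1 macrophage-like cells had Cstdc4 at 0.151, 0.281, 0.455 and 0.291 and Retnlg at 0.593, 0.355, 0.653 and 0.332 UMIs per 10000. In CD8 T-like cells Cstdc4 was at 0.0430, 0.0316, 0.0436 and 0.0641, below the Arg1 macrophage-like cells in every tumor. Monocyte-like cells had Stfa2l1 at a mean of 0.0476 ± 0.0104 and CD8 T-like cells at 0.0302 ± 0.0102 UMIs per 10000 (SD, n = 4 tumors). The ranges overlapped, while within each tumor the monocyte-like value was the higher, by the least in Lyve1Cre Csf1r fl/fl run 1 (0.0440 against 0.0436). The B-like cells again stood apart, with Retnlg at 35.8, 31.2, 72.9 and 7.45 UMIs per 10000, against 102, 35.0, 62.1 and 47.4 in neutrophil-like cells. Their mean of Stfa3 (0.216) was above that of neutrophil-like cells (0.149) through Lyve1Cre Csf1r fl/fl run 1 alone, at 0.834. That tumor had only 10 B-like cells before doublets were left out. Of all 148 B-like cells, 2.03% had a UMI of Stfa3, with at most 1 per cell. The Stfa3 values of B-like cells thus rest on very few UMIs and give no order against neutrophil-like cells. Outside neutrophil-like and B-like cells Stfa3 without doublets was at 0 in 10 of the other 14 types.

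After thinning to 1000 UMIs, a UMI of S100a8 was found in 30.1% of monocyte-like cells (median depth 4878 UMIs, 61.8% without thinning) and in 15.4% of CD8 T-like cells (median depth 4489, 46.5% without thinning). Other types lay between 11.1% (cluster 11) and 29.6% (Arg1 macrophage-like), apart from the B-like cells at 54.1%. The share of cells with a UMI of Stfa2l1 was 1.74% in monocyte-like and 0.711% in CD8 T-like cells.

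The proportions of the genes to each other were compared inside and outside neutrophil-like cells. In neutrophil-like cells 111, 157, 123 and 149 UMIs of S100a9 were counted per 100 of S100a8 in the 4 tumors, with both tumors of run 2 above both of run 1, so types were compared within tumors. The numbers were 122, 163, 111 and 192 in C1q macrophage-like cells and 118, 173, 120 and 143 in NK-like cells, above those of the neutrophil-like cells in some tumors and below in others. B-like cells, at 138, 147, 143 and 158, were above in 3 of 4 tumors, and tumor or stroma-like cells, at 90.5, 121, 89.4 and 65.1, were below in all 4. Within tumors, the ratio of the other types to that of the neutrophil-like cells had a median of 1.02 over 60 pairs of type and tumor (0.438 to 1.29). For G0s2 per S100a8 this median was 0.983 (0.538 to 1.95), for Retnlg 0.929 (0.441 to 2.29), for Stfa2l1 0.815 (0.454 to 1.84) and for Cstdc4 0.777 (0.248 to 3.10), among pairs with at least 20 UMIs. Stfa2 had 4 such pairs and Stfa3 had 0. Monocyte-like cells, at 103, 122, 108 and 113 per 100, were below the neutrophil-like cells of the same tumor in all 4 tumors. All these ratios are from all kept cells and were not taken without doublets. Cells called doublets held 90.2%, 80.1%, 86.55% and 64.3% of the outside calprotectin UMIs of the tumors, so the ratios describe these cells in large part.

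RNA of other types was found in neutrophil-like cells as well. C1qa, a complement gene of macrophages, was there at 3.28%, 1.54%, 1.31% and 1.05% of its level in C1q macrophage-like cells. Cd3e, a chain of the T cell receptor complex, was at 8.46%, 4.04%, 5.91% and 6.89% of its level in CD8 T-like cells. These values are from all neutrophil-like cells, of which 13.8% were called doublets, and were not taken without them. Pooled over the tumors, markers of other types summed to 117 and 61.7 UMIs per 10000 in subclusters 3 and 4, made mostly of called doublets. They summed to 36.7, 16.1 and 32.3 in subclusters 0, 1 and 2.

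When the 8 genes were among the clustering genes, 6551 cells were neutrophil-like, of which 6126 were also so without them. The 425 cells that joined came mostly from monocyte-like (141), Arg1 macrophage-like (58) and C1q macrophage-like cells (42), and 38 were B-like. Of these 425 cells, 87.8% were called doublets, and S100a8 and S100a9 were at 649 UMIs per 10000 over the pooled tumors, against 1274 in the cells neutrophil-like both ways.

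Between genotypes, 0 of the 8 members passed the test in neutrophil-like cells. The values below are log2 fold changes of Lyve1Cre Csf1r fl/fl over Csf1r fl/fl with their SE, from the quasi-likelihood test of edgeR on UMIs summed per tumor (n = 2 tumors per genotype). S100a8 had -0.04 ± 0.48, S100a9 0.01 ± 0.47 and Retnlg -0.04 ± 0.48. Cstdc4 had the largest value in the direction of Lyve1Cre Csf1r fl/fl, 0.44 ± 0.38, before G0s2 with 0.34 ± 0.42 and Stfa2l1 with 0.24 ± 0.36. Stfa2 and Stfa3 had -0.37 ± 0.46 and -0.29 ± 0.46. All 8 passed the filter on low counts, and each had a Benjamini-Hochberg adjusted p of 0.999 in edgeR, while 0% of the 9583 genes tested were called (116 at an unadjusted p under 0.05; DESeq2 called 0, with 38 unadjusted). With the run as a term, which pairs the tumors, edgeR called 74 genes (0.772%; 50 higher and 24 lower in Lyve1Cre Csf1r fl/fl) and 0 of the 8, and with cells called doublets left out as well it called 4 genes (0.0532%) and 0 of the 8. When 1 tumor was left out, edgeR called 7 genes (Csf1r fl/fl run 1 left out, 0.0716%), 13 (Csf1r fl/fl run 2, 0.126%), 23 (Lyve1Cre Csf1r fl/fl run 1, 0.231%) or 9 (Lyve1Cre Csf1r fl/fl run 2, 0.0864%), none of them a member, and without the filter on low counts it called 6 genes (0.0351%), also no member. With 1 tumor left out, the spread comes from the 2 tumors of the other genotype alone and the lone tumor is assumed to vary like them, so these fits say little about stability.

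Genes of the same pathways did not pass the test in neutrophil-like cells either. Of the S100 family, 6 of 11 other genes were measured well enough to test and 0 passed (median log2 fold change -0.17, against 0.003 over all genes tested). S100a6 was at 71.9, 43.3, 53.9 and 45.01 UMIs per 10000. Of the receptors and partners of calprotectin, 0 of 7 passed (median 0.12). Tlr4, its signaling receptor, was at 0.876, 1.68, 1.29 and 1.63 UMIs per 10000. Of the other stefins and cystatins 0 of 5 passed (median -0.27), of their targets, the cysteine cathepsins, 0 of 6 (median -0.05), and of the resistin family 0 of 1 (Retn, -0.12). Cstb, the stefin B gene, had 0.67 ± 0.36. Of the lipolysis genes 0 of 6 passed (median 0.31). Pnpla2, the lipase that G0S2 inhibits, was at 0.424, 0.383, 0.363 and 0.483 UMIs per 10000. Of the other neutrophil genes 0 of 16 passed (median 0.01), of the granule genes 0 of 6 (median -0.23), and of genes of other cells, such as C1qa and Cd3e, 0 of 7 (median -0.39).

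In the 11 other named types with at least 50 cells in every tumor, 67 of 88 pairs of member and type passed the filter. Of these pairs 0 were called by edgeR, with 0% to 0.0126% of all genes called per type. DESeq2 called 0 of the pairs as well. The most genes it called in a type were 5 of 9357, in C1q macrophage-like cells. Of the named types, regulatory T-like cells had the most members called with the run as a term. S100a8 there was at 17.4, 5.92, 8.94 and 2.28 UMIs per 10000, with the Lyve1Cre Csf1r fl/fl tumor the lower of each run. Its log2 fold change was -1.05 ± 0.58 (adjusted p = 0.9998 in edgeR) and, with the run as a term, -1.15 ± 0.10 (adjusted p = 2.75e-12 in edgeR, 0.527% of genes called). The fit with the run as a term has very few tumors left to estimate the spread from, so its SE and p-values can be too small. S100a9, Stfa2l1, Retnlg and G0s2 were called with it, at -1.15, -1.38, -0.94 and -1.29. The doublet calls moved with these values, at 12.8%, 5.80%, 6.82% and 4.74% of the regulatory T-like cells. Without these cells, S100a8 was at 2.39, 1.76, 3.41 and 1.78 UMIs per 10000, and with the run as a term its log2 fold change was 0.28 ± 0.13 (adjusted p = 0.997 in edgeR, 0.210% of genes called). S100a9 was then at 0.43 ± 0.12 (adjusted p = 0.0820 in edgeR). Its levels were 3.03, 2.82, 6.03 and 2.52 UMIs per 10000. The calls of S100a8 and S100a9 were thus lost without the cells called doublets. Stfa2l1, Retnlg and G0s2 were not called there either, but fewer pairs of member and type passed the filter without doublets. For S100a8 and S100a9 the Lyve1Cre Csf1r fl/fl tumor was then the higher one in run 1. In run 2 S100a9 was still lower in that genotype and the S100a8 levels were nearly equal, so the positive values rest on run 1. Among the cells left, 1 held 627 calprotectin UMIs. Pooled over the tumors, calprotectin was at 6.20 UMIs per 10000 with this cell and 4.96 without it. The fit was not made without this cell.

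In the same fit with the run as a term, 4 more values were called in the other named types. In MHC class II-high dendritic-like cells S100a8, S100a9 and Retnlg were lower in Lyve1Cre Csf1r fl/fl tumors, at -0.50, -0.52 and -0.63 (0.413% of genes called). In mature dendritic-like cells Cstdc4 was higher, at 0.9997 ± 0.20 (adjusted p = 0.00718 in edgeR, 0.363% of genes called), with levels of 0.509, 0.268, 0.636 and 0.914 UMIs per 10000. Of the 191 Cstdc4 UMIs in the last of these, 76 were in 1 cell, and the fit was not made without it. These 9 calls were among 67 pairs of member and type, against 0.171% of all pairs of gene and type called. None of the 9 was made without the cells called doublets, where 5 others of 50 pairs were (0.199% of all pairs), namely S100a8 and S100a9 in mature dendritic-like (-0.86 and -0.97, 0.0955% of genes called) and cDC1-like cells (-1.10 and -1.29, 0.553%, against 0.153% with all cells) and Cstdc4 in NK-like cells (-1.57, 0.167%, against 0.0413% with all cells). For S100a8 and S100a9 in these dendritic cells without doublets, the Lyve1Cre Csf1r fl/fl tumor was the lower of each run. With all cells it was the higher for S100a8 in mature dendritic-like cells of run 2 and in cDC1-like cells of run 1. Without doublets and with no run term, 0 of 50 pairs were called. Cells with over 100 calprotectin UMIs were still 10 mature dendritic-like and 2 cDC1-like cells. Pooled calprotectin was 5.66 and 2.91 UMIs per 10000 with them, and 3.01 and 1.535 without them. The fits were not made without them. Cstdc4 in NK-like cells without doublets was at 0.401, 0.0872, 0.0439 and 0.106 UMIs per 10000, lower in the Lyve1Cre Csf1r fl/fl tumor of run 1 and higher in that of run 2, so this call rests on run 1. The 2 clusters without a name were tested apart from these 11 types. In the main fit, with all tumors, the filter on low counts and no run term, 0 members were called in them. Cluster 11 was led by Ctsg, Elane and Mpo, genes of neutrophil granules, beside Mki67 and Foxp3, and it is counted as outside neutrophil-like cells. With the run as a term, 4 members were called in cycling cluster 10, with S100a8 at -1.78 ± 0.32, S100a9 at -1.89 ± 0.35, Cstdc4 at -1.35 ± 0.27 and Retnlg at -1.60 ± 0.34 (adjusted p of 0.00791, 0.0102, 0.0154 and 0.0235 in edgeR, 0.949% of genes called). S100a8 there was at 18.2, 6.40, 10.99 and 0.819 UMIs per 10000, the Lyve1Cre Csf1r fl/fl tumor being the lower of each run. Doublets were 36.9%, 22.3%, 24.2% and 16.1% of its cells. Without them S100a8 and S100a9 had 0.59 ± 0.16 and 0.71 ± 0.16 with the run as a term (adjusted p of 0.248 and 0.0764 in edgeR, 0.185% of genes called), so both calls were lost and both values turned direction. Of the cells left, 1 held 335 calprotectin UMIs. Pooled calprotectin was at 2.19 UMIs per 10000 with this cell and 1.77 without it, and the fit was not made without it. Retnlg was not called either, and Cstdc4 was not tested without doublets. In cluster 11, G0s2 was called at -0.95 ± 0.19 (adjusted p = 2.15e-04 in edgeR, 1.04% of genes called) and had 0.70 ± 0.40 without doublets (0.0244% of genes called), where the Lyve1Cre Csf1r fl/fl tumor was the higher in run 1 alone. Members were called in these clusters under other settings as well, up to 6 in cycling cluster 10 (1.53% of genes called) and 4 in cluster 11 (0.346%) without Lyve1Cre Csf1r fl/fl run 1, all lower in Lyve1Cre Csf1r fl/fl.

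In the 11 named types, 68 to 71 pairs of member and type were tested with 1 tumor left out and no run term. When Csf1r fl/fl run 1 was left out 5 were called, 3 of them higher in Lyve1Cre Csf1r fl/fl (0.143% of all pairs of gene and type called). The counts were 9, all lower, without Csf1r fl/fl run 2 (0.509%), 24 without Lyve1Cre Csf1r fl/fl run 1, of which 23 were lower (0.298%), and 0 without Lyve1Cre Csf1r fl/fl run 2 (0.0956%). With no filter on low counts 4 of 88 were called, all lower (0.202%).

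**Figure D5:**
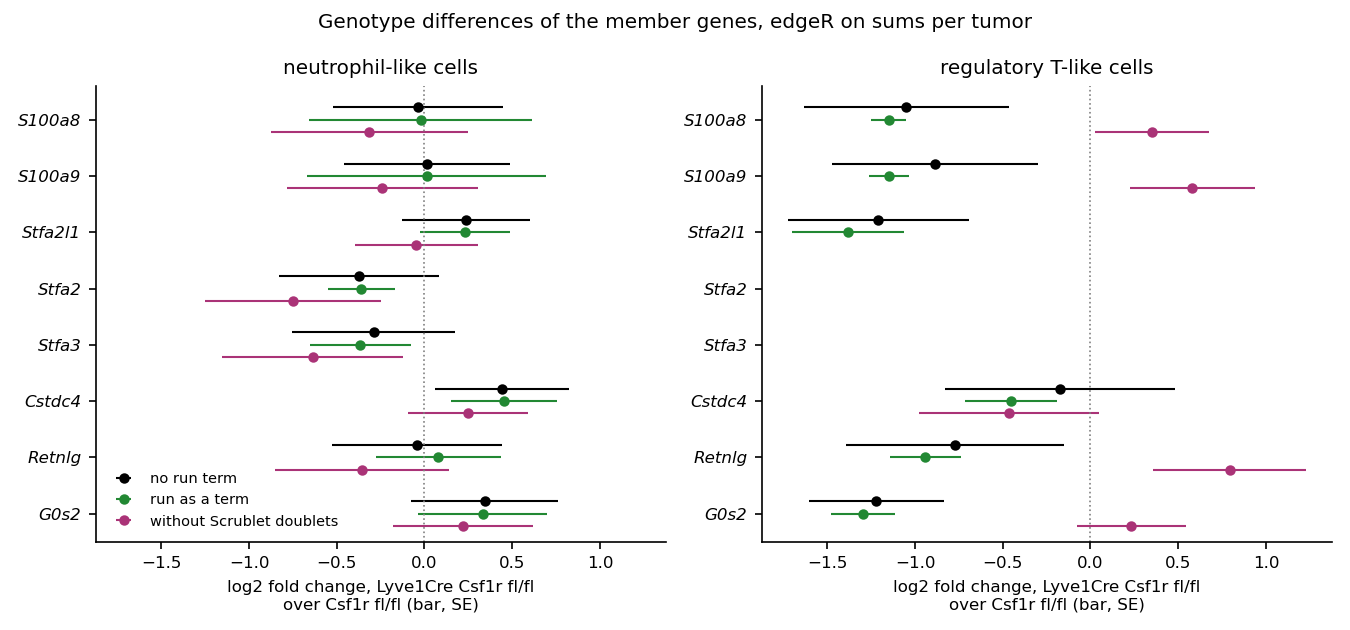
Log2 fold changes of the 8 genes between genotypes in neutrophil-like and regulatory T-like cells, with SE bars, from edgeR without a run term (black), with the run as a term (green) and without cells called doublets (purple); a gene that did not pass the filter has no point. In regulatory T-like cells the S100a8 and S100a9 points lie below 0 with all cells and above 0 without the cells called doublets, where 1 cell held 627 calprotectin UMIs.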

How the data were processed

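Single-cell libraries of the Chromium 3′ kit (v2) from 4 tumors in 2 runs were used. Per the labels, the authors aligned the reads with Cell Ranger 6.0.1 to mm10. The deposited counts of UMIs per gene and barcode, and the deposited counts of the 2 hashtag antibodies, are not normalized. A deposited table of corrected counts, whole-number scores of SCTransform by the authors, served only to find the cells they had kept. These are singlets with under 5% mitochondrial UMIs outside clusters specific to 1 tumor, Lyve1Cre Csf1r fl/fl run 2. A cell was assigned to a tumor by the hashtag with the higher centered log ratio. Cells were clustered without the 8 genes with SCTransform, 30 principal components and a resolution of 0.6 (Seurat 5.3.0, sctransform 0.4.2, R 4.3.3), and clusters were named from marker lists, so that cell types may differ from those of the study. Doublets were called per run by Scrublet (scanpy 1.11.5, expected rate 0.2) and kept in unless stated. A second Scrublet run without the 8 genes, and the fit with the run as a term and doublets left out together, were chosen after seeing the data.

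Levels are UMIs per 10000 UMIs summed over the cells of a type in a tumor. UMIs summed per tumor were compared between genotypes with edgeR 4.0.16 (filterByExpr, TMM, quasi-likelihood test, Benjamini-Hochberg adjustment over all genes tested, threshold 0.05). Its p-values measure the spread between these tumors. The fit with the run as a term has very few tumors left to estimate that spread from. Its SE and p-values can be too small and are weak evidence of a repeated difference. DESeq2 1.42.0 was an alternative. The tumors of 1 run share a pool and library per the labels, and across 2784 genes the run 1 to run 2 log2 ratios of the genotypes in neutrophil-like cells had r = 0.702, so a fit with the run as a term stands beside the results it changes. The edgeR step was tested on simulated data, where it missed most of the smaller changes in neutrophil-like cells. A lack of calls there does not exclude such changes. The members and lists were chosen with earlier results of these data known. All 8 members are named, and other genes come from lists chosen by pathway or lead a cluster. Promoter windows were read from RefSeq tables and gene coordinates from the mm10 annotation GENCODE vM21. Protein sequences were not used here.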

Additional observations from a re-analysis of the deposited data

Results flagged for a closer look

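Barcodes that the authors had not kept held S100a8 at levels above those of the kept cells in run 1, and they enter no comparison of the report. The kept cells of run 1 had 95.8 S100a8 UMIs per 10000. The barcodes not kept had 118.9 where 5% or more of the UMIs were mitochondrial (2019 barcodes), 104.0 where under 5% were mitochondrial and the hashtags differed by less than 3 times (3363 barcodes), and 189.6 where they differed by at least 3 times (4899 barcodes). In run 2, where the kept cells had 47.1, the same 3 sets had 35.5, 42.7 and 31.6 UMIs per 10000. Per the paper, the barcodes not kept in run 2 include lymphocyte clusters specific to its Lyve1Cre Csf1r fl/fl tumor. The S100a9 to S100a8 ratio was 1.19 to 1.26 in the barcodes not kept in run 1 and 1.57 to 1.58 in those of run 2, against 1.17 and 1.53 in the kept cells. The cause was not tested.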

How the results depend on the processing

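In neutrophil-like cells, 0 genes were called under 9 of 16 alternatives, of which 8 used edgeR and 1 DESeq2. With the run as a replicate block, which pairs the tumors, edgeR called 74, without the filter on low counts 6, with 1 tumor left out 7 to 23, and with the block and without doublets 4. No alternative called a member (smallest adjusted p = 0.114, Stfa2, in edgeR). In the other named types, the block called 9 of 67 pairs of member and type (0.171% of all pairs of gene and type called), the block without doublets 5 of 50 (0.199%), no filter 4 of 88 (0.202%), and leaving out 1 tumor 0 to 24 of 68 to 71 (0.0956% to 0.509%).

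Cstdc4 and G0s2 kept a positive log2 fold change in neutrophil-like cells under all 16 alternatives, and the other 6 members turned sign under some, none of them called. With 1 tumor left out, S100a8 ranged from -0.30 to 0.26 (above 0 without Csf1r fl/fl run 1 or Lyve1Cre Csf1r fl/fl run 2), S100a9 from -0.086 to 0.065, Stfa2 from -1.02 to 0.46, Stfa3 from -0.82 to 0.63 and Retnlg from -0.56 to 0.73. S100a9 was -0.018 without the filter, -0.077 with library totals, -1.92e-04 in DESeq2 and -0.0091 with the stricter hashtag rule. Without doublets S100a9 was -0.24 and Stfa2l1 -0.046, with the block as well -0.23 and -0.037, and with doublets called without the members -0.26 and -0.069. With clusters made with the members S100a8 was 0.036, Stfa3 0.24 and Retnlg 0.050, and with the block Retnlg was 0.079. In regulatory T-like cells S100a8 ranged from -2.48 to 0.051 with 1 tumor left out, and under the same 3 doublet settings S100a8 was 0.35, 0.28 and 0.36 and S100a9 0.58, 0.43 and 0.62. In MHC class II-high dendritic-like cells S100a8 ranged from -2.15 to 1.147 with 1 tumor left out. In mature dendritic-like cells Cstdc4 was -0.073 without doublets and -0.082 with the block as well. The cause was not tested.

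The mean S100a8 level of neutrophil-like cells, 525 UMIs per 10000, was 634 without doublets under either call and moved by less than the SD of the tumors under the other 5 settings. The share of calprotectin UMIs outside was 20.9% and 17.0% in Csf1r fl/fl and Lyve1Cre Csf1r fl/fl tumors, 4.14% and 5.81% without doublets, 4.42% and 6.33% with doublets called without the members, and 10.4% in Lyve1Cre Csf1r fl/fl with clusters made with the members. Left-out tumors gave 14.2% to 27.6% and 13.7% to 20.4%. Their range for the share of neutrophil-like cells was 18.2% to 24.6% and 16.6% to 26.6%. Neutrophil-like cells with a UMI of S100a8 were 98.73% without thinning and 98.74% at 2000 UMIs. Of such shares over the 8 members, 15 moved by at least the SD of the tumors and 1 did not. Stfa2 went from 2.69% of neutrophil-like cells at 1000 UMIs to 4.94% at 2000, and S100a8 from 15.4% to 25.4% of CD8 T-like cells. The highest S100a8 level of a neutrophil subcluster was 1410 at a resolution of 0.5, against 882. With 2 tumors per genotype, a tumor and its genotype cannot be told apart for single values, and Stfa2 and Stfa3 rest on few UMIs.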
